A study of Mus musculus with 12 samples.

Results

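The difference between Mgl2-DTR and wild-type mice, all given diphtheria toxin, was read as the effect common to both white fat depots. It was estimated on 8 of the 12 arrays of the study, the 4 of epididymal and the 4 of inguinal white fat, by comparing the 4 Mgl2-DTR arrays with the 4 wild-type arrays while the depot was kept as a block. The value of a gene is therefore the mean of its change in each depot, given here as the Mgl2-DTR mean less the wild-type mean in log2 units of the deposited levels. Of 22180 genes with a probe of their own, 11788 had a mean level above 5.74 in at least 1 depot, which was the median of all such probe values, and were tested. All animals were male mice of the C57BL/6N background, either wild-type or Mgl2-DTR and matched in age, and every one of them, wild-type controls included, received 500 ng of diphtheria toxin into the abdomen every 3 days before tissue was taken on day 10. There were 2 arrays for each genotype in each depot. No array came from Mgl2-DTR mice without toxin, so effects of the toxin cannot be told apart from those of the genotype itself. Mgl2-DTR arrays are called depleted below. The question was what fat tissue looks like once phagocytes that carry the lectin CD301b have been removed.

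CD301b is encoded by Mgl2 and is a surface lectin that binds galactose and N-acetylgalactosamine on glycoproteins. In fat, skin and other connective tissue it is carried by resident macrophages of the alternatively activated kind and by type 2 conventional dendritic cells. Mouse cells are nearly insensitive to diphtheria toxin unless they carry a receptor for it, so a receptor placed under the control of Mgl2 makes these cells the target. The labels do not give the zygosity of the mice, how the receptor was inserted, or whether the 2 arrays of a group and the 2 depots come from separate animals, so a p-value here reflects how far these samples spread, which may be technical. Fat was homogenized whole, so a lower level can mean fewer cells of a type or less RNA in each cell, and the values cannot tell these apart.

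Markers of white fat were high in all 8 arrays. The mean level of 14 white adipocyte markers lay between 10.76 and 11.58, and all 14 were above 5.74 in every array. These markers do not tell the depots apart. The mean level of 9 mesothelial genes was 7.22 to 8.19 in epididymal and 4.84 to 5.21 in inguinal arrays. Macrophage markers were present in every array too, at mean levels of 7.76 to 10.25 over 20 genes. Some arrays held other tissue or stood apart. In the epididymal Mgl2-DTR replicate 2 array, 14 genes of the epididymal duct averaged 11.03, against 3.93 to 4.37 in the other arrays. Skeletal muscle genes averaged 9.54 in inguinal wild-type replicate 2 and 9.29 in inguinal Mgl2-DTR replicate 1, against 6.52 and 6.53 in the other inguinal arrays. The epididymal wild-type replicate 1 array was high in cell cycle genes, with a mean of 8.02 over 20 genes against 6.07 to 6.93 elsewhere, and had the highest mean of the macrophage list. The epididymal arrays said below to stand apart are this one and Mgl2-DTR replicate 2. Of 15 hepatocyte genes, 9 were above 5.74 in epididymal and 8 in inguinal wild-type replicate 2, against 4 to 6 elsewhere. Their mean levels in these arrays were 6.98 and 6.67, against 5.81 to 6.33 in the others. Epididymal replicates were less alike than inguinal ones, with a standard deviation of the difference between replicates across tested genes of 0.54 and 0.52 against 0.36 and 0.35. Array medians ran from 5.19 to 5.28, and with 2 arrays in a group the precision is low throughout.

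A small group of genes fell over both depots, most of them on lists of myeloid genes, and no gene passed the test in the other direction. In limma's moderated test with Benjamini-Hochberg adjustment, 16 of 11788 genes fell at an adjusted p under 0.05, which is 0.136% of the genes tested, and 0 rose, which is 0%. Without adjustment, 393 genes were lower (3.33%) and 699 higher (5.93%) at a p under 0.05. In all 16, both Mgl2-DTR arrays lay below both wild-type arrays in each depot, an arrangement that 382 genes (3.24%) showed in that direction and 795 (6.74%) in the other. Of the 16, 11 belong to lists of myeloid genes, namely Mgl2, Retnla, Cd209g, Fcrls, Cd33, C1qa, C1qb, C1qc, H2-Ab1, H2-Eb1 and Lyz1. The other 5, namely Abca9, Gfra2, Slc9a9, Gbgt1 and Stard8, are on none of these lists. The lists hold 101 of the 11788 genes tested. They were put together with earlier results of these data known, so the overlap is only a description. The count leaned on single arrays. It was 42 without epididymal wild-type replicate 2, of which 35 were lower and 7 higher, 7 without epididymal wild-type replicate 1, 5 without epididymal Mgl2-DTR replicate 1, and 1 without epididymal Mgl2-DTR replicate 2 or without any 1 of the 4 inguinal arrays. That 1 gene was Mgl2 in each of those 5 fits. Without both inguinal arrays that held muscle the count was 0, with 476 genes at an unadjusted p under 0.05, and without both epididymal arrays that stood apart it was 3. All 16 changes kept their sign in each of the 22 or 23 alternatives run on them. In the fits that left out arrays or used 1 depot this was fixed beforehand, since the arrays of all 16 lay apart in both depots.

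**Figure D1:**
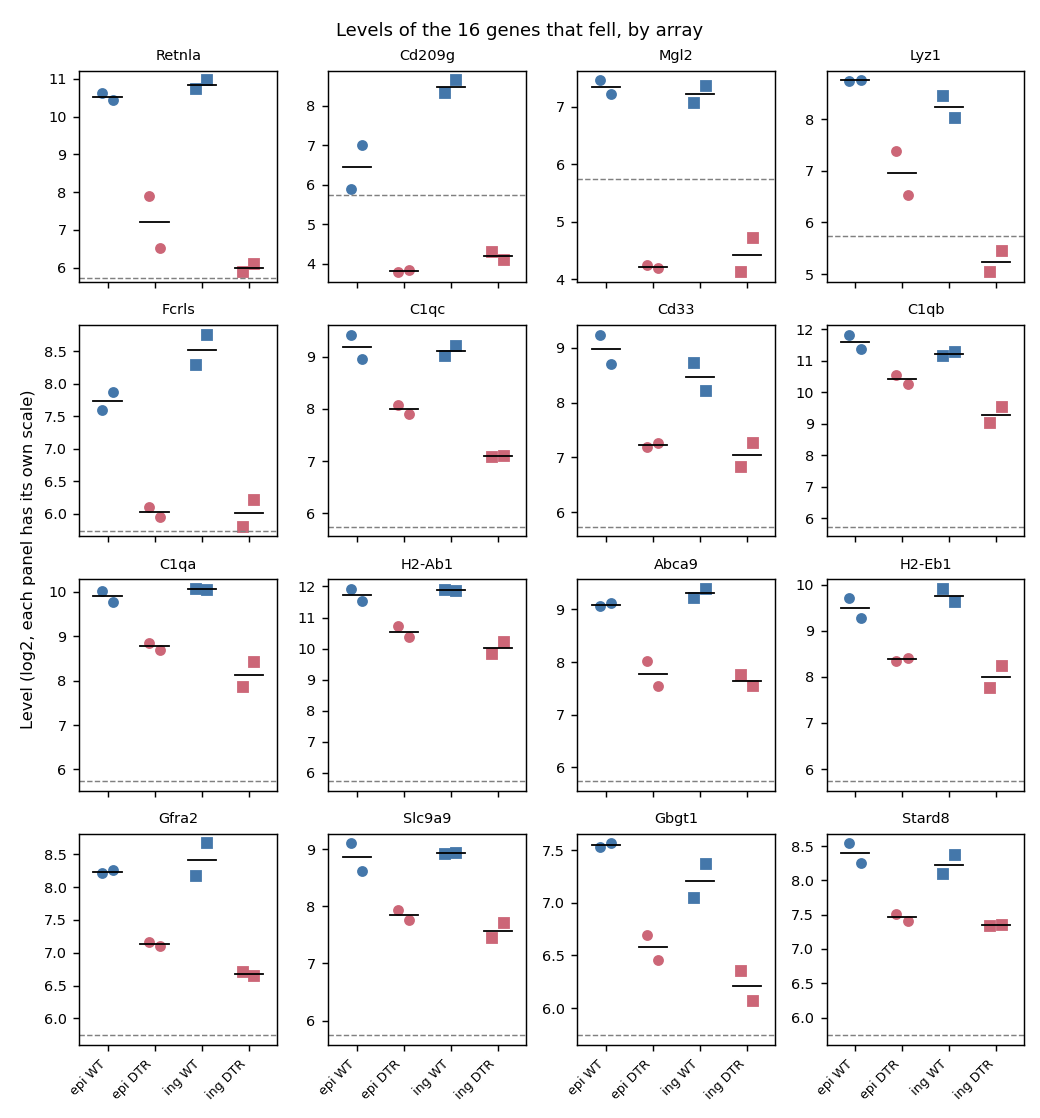
Level of each of the 16 genes that fell, 1 panel per gene, in log2 units on the vertical axis (each panel has its own scale). Circles are epididymal (epi) and squares inguinal (ing) arrays, blue is wild-type (WT) and red Mgl2-DTR (DTR), short black lines are means of 2 arrays, and the dashed line marks 5.74, the level used as a filter. In every panel the red points lie below the blue points of the same depot, and the Mgl2 and Cd209g levels of all 4 Mgl2-DTR arrays lie under the dashed line.

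Mgl2, the gene under whose control the toxin receptor was placed, gave the smallest p of all genes. Its level was 7.46 and 7.22 in wild-type epididymal fat and 7.07 and 7.36 in wild-type inguinal fat. In Mgl2-DTR mice it was 4.25 and 4.19 in epididymal and 4.12 and 4.72 in inguinal fat. The wild-type arrays were thus alike in both depots, and all 4 Mgl2-DTR arrays were close to each other and under the filter level. The shared change was -2.96 (SE 0.158, adjusted p = 0.000806, n = 4 arrays per genotype), a 7.77-fold lower level, with -3.12 in epididymal and -2.80 in inguinal fat. Whether the inserted receptor by itself alters the RNA of Mgl2 was not tested. Clec10a, which encodes CD301a, the other mouse lectin of this pair, was lower by a change of -2.20 (adjusted p = 0.150), with arrays apart in each depot, but did not pass. Its level was 8.08 and 6.51 in wild-type and 5.59 and 5.92 in Mgl2-DTR epididymal fat, and 7.93 and 7.71 against 4.72 and 5.21 in inguinal fat. Clec10a was named after its values were seen.

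Retnla had the largest fall of the 16. It encodes RELM-alpha, a secreted protein made by alternatively activated macrophages. Wild-type levels were 10.62 and 10.44 in epididymal and 10.72 and 10.97 in inguinal fat, and Mgl2-DTR levels were 7.90 and 6.53 in epididymal and 5.88 and 6.09 in inguinal fat. The wild-type arrays of both depots lay between 10.44 and 10.97, whereas the depleted epididymal arrays stayed above the depleted inguinal ones. The shared change was -4.09 (SE 0.378, adjusted p = 0.0189), a 17.0-fold lower level. Cd209g, a lectin of the DC-SIGN family, was 5.90 and 7.002 in wild-type epididymal and 8.32 and 8.65 in wild-type inguinal fat, against 3.79 and 3.84 and 4.30 and 4.11 in Mgl2-DTR fat. Here the wild-type levels differed between depots while the depleted levels were low in all 4 arrays. The shared change of Cd209g was -3.46 (SE 0.365, adjusted p = 0.0297). Fcrls, an Fc receptor-like protein of tissue macrophages, was 7.59 and 7.88 in wild-type epididymal and 8.28 and 8.75 in wild-type inguinal fat, and 6.11, 5.95, 5.80 and 6.21 in the Mgl2-DTR arrays. It fell by 2.11 on the log2 scale (SE 0.203, adjusted p = 0.0189), a 4.31-fold lower level.

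The 3 chains of C1q fell together. C1q starts the classical complement cascade, is assembled from the products of C1qa, C1qb and C1qc, and in tissues is made mostly by macrophages. C1qc was 9.43 and 8.96 in wild-type epididymal and 9.03 and 9.21 in wild-type inguinal fat, against 8.08 and 7.90 and 7.08 and 7.10 in Mgl2-DTR fat. C1qa was 10.02, 9.78, 10.06 and 10.05 in the wild-type arrays and 8.85, 8.69, 7.86 and 8.41 in the Mgl2-DTR arrays, in the same order. C1qb was 11.83, 11.37, 11.15 and 11.29 in wild-type and 10.55, 10.27, 9.01 and 9.54 in Mgl2-DTR fat. In each chain the inguinal depleted arrays were the lowest, and the genotypes did not overlap in either depot. The shared changes were -1.61 for C1qc (SE 0.190, adjusted p = 0.0304), -1.52 for C1qa (SE 0.194, adjusted p = 0.0418) and -1.56 for C1qb (SE 0.204, adjusted p = 0.0440), which are levels 3.06-fold, 2.87-fold and 2.96-fold lower. The change was larger in inguinal fat for all 3, at -2.03, -1.92 and -1.94 against -1.20, -1.12 and -1.19 in epididymal fat, and the difference between depots did not pass its own test (adjusted p = 0.993 for each).

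MHC class II genes, whose products show peptides to CD4 T cells, fell as a pair of beta chains. H2-Ab1 was 11.92 and 11.54 in wild-type epididymal and 11.90 and 11.85 in wild-type inguinal fat, and 10.73 and 10.36 and 9.83 and 10.22 in Mgl2-DTR fat. H2-Eb1 was 9.71, 9.27, 9.90 and 9.62 in the wild-type arrays and 8.34, 8.42, 7.76 and 8.23 in the Mgl2-DTR arrays. All depleted arrays of both genes were below all wild-type arrays, across depots as well as within them. The shared changes were -1.52 for H2-Ab1 (SE 0.183, adjusted p = 0.0317) and -1.44 for H2-Eb1 (SE 0.187, adjusted p = 0.0440). H2-Aa, the alpha chain that pairs with H2-Ab1, came just outside the threshold with a change of -1.40 (adjusted p = 0.0697). Its change was -1.03 in epididymal and -1.77 in inguinal fat.

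Lyz1 and Cd33 completed the myeloid genes that fell. Lyz1 encodes lysozyme P, which cleaves the cell walls of bacteria. It was 8.75 and 8.76 in wild-type epididymal and 8.45 and 8.02 in wild-type inguinal fat, against 7.38 and 6.54 and 5.03 and 5.45 in Mgl2-DTR fat. The depleted inguinal arrays lay under the filter level and the depleted epididymal arrays above it. Lyz1 fell by 2.39 on the log2 scale (SE 0.290, adjusted p = 0.0317), a 5.26-fold lower level. Lyz2, lysozyme M, a near copy whose RNA the array may not fully separate from that of Lyz1, was lower by a change of -1.22 (adjusted p = 0.0921) and did not pass. Cd33, a Siglec that binds sialic acid and carries inhibitory motifs, was 9.24, 8.70, 8.71 and 8.22 in the wild-type arrays and 7.19, 7.26, 6.83 and 7.26 in the Mgl2-DTR arrays. The 4 depleted arrays differed little between depots, and its shared change was -1.58 (SE 0.178, adjusted p = 0.0304), with -1.74 in epididymal and -1.42 in inguinal fat.

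The other 5 genes that fell are on none of the myeloid lists. Abca9, a transporter of the ABC A subfamily, was 9.06, 9.13, 9.23 and 9.39 in the wild-type arrays and 8.02, 7.54, 7.75 and 7.54 in the Mgl2-DTR arrays, a change of -1.49 (SE 0.138, adjusted p = 0.0189). Gfra2, the receptor subunit that binds neurturin, was 8.21, 8.26, 8.17 and 8.67 in wild-type and 7.16, 7.10, 6.71 and 6.64 in Mgl2-DTR fat, a change of -1.42 (SE 0.163, adjusted p = 0.0304). Both had wild-type levels that were alike in the depots. Slc9a9, a sodium and proton exchanger of endosomes, was 9.10, 8.63, 8.92 and 8.94 in wild-type and 7.93, 7.76, 7.44 and 7.70 in Mgl2-DTR fat, a change of -1.19 (SE 0.140, adjusted p = 0.0304). Gbgt1, the glycosyltransferase that makes the Forssman glycolipid, was 7.54, 7.57, 7.05 and 7.37 in wild-type and 6.70, 6.46, 6.35 and 6.06 in Mgl2-DTR fat, a change of -0.99 (SE 0.116, adjusted p = 0.0304). Stard8, a protein with a lipid-binding START domain, was 8.54, 8.25, 8.09 and 8.37 in wild-type and 7.52, 7.40, 7.34 and 7.35 in Mgl2-DTR fat, a change of -0.91 (SE 0.106, adjusted p = 0.0304). The falls of Gbgt1 and Stard8 were the smallest of the 16 and were of similar size in the depots, at -0.97 and -0.93 in epididymal and -1.003 and -0.88 in inguinal fat.

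The next genes in order of p did not pass. Stab1, which encodes the scavenger receptor stabilin-1, was lower by a change of -0.68 (adjusted p = 0.0659), followed by H2-Aa, by Rassf2 at -0.71 (adjusted p = 0.0772), and by Lyz2 and P2ry12, a receptor for ADP, at -1.22 and -0.65 (adjusted p = 0.0921 for both). Larger changes with a larger spread did not pass either. Csf1r, the receptor for the macrophage growth factors CSF1 and IL-34, was 11.54, 10.34, 10.32 and 10.34 in the wild-type arrays and 9.54, 9.29, 7.86 and 8.596 in the Mgl2-DTR arrays, a change of -1.81 (adjusted p = 0.103). Ccl8, a chemokine made by resident macrophages, was 6.33 and 6.53 in wild-type epididymal and 9.28 and 8.73 in wild-type inguinal fat, against 4.70 and 5.07 and 5.18 and 6.10 in Mgl2-DTR fat, a change of -2.46 (adjusted p = 0.105). Ccl8 was higher in inguinal than in epididymal wild-type fat, and its inguinal depleted levels lay below the epididymal wild-type levels. Stab1, H2-Aa, Rassf2 and Lyz2 were named after their values were seen, as the next genes in order of p.

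The promoters of 13 of the 16 genes are listed in RefSeq (GRCm38.p6), as 250 bases before and 50 bases after a start site. They were searched on both strands for GAGGAA, the core letters bound by the myeloid ETS factor PU.1, for CCAAT and for TATAAA, with overlaps between them allowed. The first motif was in 7 of the 13 (53.8%), against 27.1% of the 9281 tested genes whose promoter was searched. Only the first listed promoter of a gene was searched, and not every chromosome was included. CCAAT was in 6 of 13 (46.2%), against 37.7%, and TATAAA in 3 of 13 (23.1%), against 7.32%. The windows of 6 genes are printed to show where these letters fall, and the choice favours matches, since only H2-Eb1 among them lacks GAGGAA. Not printed are Abca9 and Cd33, which hold it, and Cd209g, Stard8, Gbgt1, Slc9a9 and Lyz1, which do not. Letters are in lower case with GAGGAA, or TTCCTC where it is read on the other strand, in capitals. Each window is written 5′ to 3′ along its gene.
Mgl2 (chr11:70130107-70130406, plus strand): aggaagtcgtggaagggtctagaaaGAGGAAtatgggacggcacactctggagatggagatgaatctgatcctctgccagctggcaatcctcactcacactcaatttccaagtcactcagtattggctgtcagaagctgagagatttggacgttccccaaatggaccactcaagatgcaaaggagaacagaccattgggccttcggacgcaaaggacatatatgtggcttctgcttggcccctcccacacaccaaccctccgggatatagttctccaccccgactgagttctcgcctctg
Retnla (chr16:48842359-48842658, plus strand): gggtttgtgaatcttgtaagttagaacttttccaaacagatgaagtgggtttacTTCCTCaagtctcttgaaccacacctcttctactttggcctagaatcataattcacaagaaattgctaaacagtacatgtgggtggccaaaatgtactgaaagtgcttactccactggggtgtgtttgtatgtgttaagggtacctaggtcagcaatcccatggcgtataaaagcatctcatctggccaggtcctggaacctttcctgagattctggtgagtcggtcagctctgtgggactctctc
Fcrls (chr3:87263475-87263774, minus strand): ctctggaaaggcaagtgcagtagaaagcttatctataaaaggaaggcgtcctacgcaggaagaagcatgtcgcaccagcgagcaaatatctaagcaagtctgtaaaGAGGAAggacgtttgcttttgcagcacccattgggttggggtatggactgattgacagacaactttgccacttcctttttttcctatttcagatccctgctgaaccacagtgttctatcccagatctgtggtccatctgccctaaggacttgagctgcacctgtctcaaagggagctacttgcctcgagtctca
C1qc (chr4:136892865-136893164, minus strand): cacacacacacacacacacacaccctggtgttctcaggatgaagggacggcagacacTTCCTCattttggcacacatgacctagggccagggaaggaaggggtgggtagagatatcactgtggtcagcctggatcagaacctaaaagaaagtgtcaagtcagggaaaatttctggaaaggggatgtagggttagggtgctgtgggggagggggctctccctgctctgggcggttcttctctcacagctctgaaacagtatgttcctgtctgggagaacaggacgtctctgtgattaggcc
C1qb (chr4:136886151-136886450, minus strand): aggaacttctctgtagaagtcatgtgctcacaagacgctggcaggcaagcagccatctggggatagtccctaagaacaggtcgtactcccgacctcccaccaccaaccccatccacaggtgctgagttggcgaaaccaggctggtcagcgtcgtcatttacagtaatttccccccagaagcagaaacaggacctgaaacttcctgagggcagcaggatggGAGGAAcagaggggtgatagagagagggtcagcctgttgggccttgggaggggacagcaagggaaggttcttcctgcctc
H2-Eb1 (chr17:34305617-34305916, plus strand): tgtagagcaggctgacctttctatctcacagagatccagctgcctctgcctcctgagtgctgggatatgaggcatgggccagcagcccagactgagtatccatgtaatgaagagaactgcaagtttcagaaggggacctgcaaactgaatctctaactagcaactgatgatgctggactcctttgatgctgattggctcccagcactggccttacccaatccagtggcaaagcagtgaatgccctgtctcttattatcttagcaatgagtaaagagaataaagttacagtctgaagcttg
The letters begin 225 bases before the listed start site in Mgl2, 196 before it in Retnla, 144 in Fcrls, 193 in C1qc and 30 in C1qb, so they take no common place. H2-Eb1 has no match in its window but holds CCAAT at 59 and 35 bases before the start. A match of 6 letters is a description of the sequence and not a binding site.

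Lists of macrophage and related myeloid genes, which were put together with earlier results of these data known, were lower as groups. Pooled here were 10 lists with 101 tested members between them. They cover resident, lipid-associated and other macrophages, Kupffer cells, CD301b-positive phagocytes with type 2 dendritic cells, and MHC class II presentation. The rest are Clec4 and Fc receptors, Ms4a genes and lysozymes. The lists of type 1 dendritic cells (median -0.02) and of monocytes and neutrophils (median 0.28) were not pooled. Of the 101 members, 84 were lower in both depots and 11 fell. Of all 11788 genes, 5791 were lower in epididymal and 3485 in inguinal fat, so at most 3485 were lower in both. Of the list members, 33 (32.7%) were lower by at least 1 log2 unit in each depot, against 0.222% of the other genes tested. The median change of the 101 members was -0.78 and that of the other genes 0.05. Counts of direction are read against all 11788 genes, of which 4384 (37.2%) were lower and 7404 (62.8%) higher, and under cyclic loess 50.4% were lower and 49.6% higher. The list for resident macrophages of the alternatively activated kind had 19 tested genes, of which 17 were lower, 15 of them with arrays apart in both depots, and 3 fell, namely Retnla, Cd209g and Fcrls. Their median was -0.92. Ccl8 belongs to this list, as do Cd163, the receptor for hemoglobin and haptoglobin, with a change of -1.86 (adjusted p = 0.232), and Folr2, the folate receptor beta, at -1.82 (adjusted p = 0.103). Maf, a transcription factor of macrophages, was lower by a change of -0.49 (adjusted p = 0.210). The median of 20 genes found in macrophages at large was -0.85, and -0.64 without epididymal wild-type replicate 1. Of these 20 genes, 19 were lower, 12 of them with arrays apart, and the 3 C1q chains fell. The exception was Cx3cr1, the fractalkine receptor, at 0.33 (adjusted p = 0.455), which was 6.58, 6.44, 6.10 and 5.93 in wild-type and 6.72, 6.68, 6.43 and 6.55 in Mgl2-DTR fat.

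Receptors and surface proteins of phagocytes showed the same direction. All 11 tested Fc receptors and Siglecs were lower, with a median of -0.91, and Fcrls and Cd33 fell. Of 9 lectin receptors of the Clec4 and Clec7 groups 7 were lower, with a median of -1.13 and none past the test. Clec4a3 was at -1.71 (adjusted p = 0.231), Clec4a1 at -1.68 (adjusted p = 0.243) and Clec7a, the receptor dectin-1 for fungal glucan, at -1.54 (adjusted p = 0.412). Of 8 Ms4a genes, which encode tetraspanning membrane proteins, 7 were lower, with a median of -1.10, among them Ms4a7 at -2.14 (adjusted p = 0.108) and Ms4a14 at -2.005 (adjusted p = 0.188). Without epididymal wild-type replicate 1, the array with the highest macrophage levels, the median was -0.69 for the lectin receptors and -0.57 for the Fc receptors and Siglecs.

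In antigen presentation, the classes parted. All 7 tested genes of MHC class II presentation were lower, with a median of -1.05, and H2-Ab1 and H2-Eb1 fell. The 10 tested genes of MHC class I presentation, which nearly all cells use, had a median of 0.06, near the 0.05 of all genes, and none passed. The class I gene with the smallest p was Tapbp, tapasin, at 0.18 (adjusted p = 0.596). In the list for CD301b-positive phagocytes and dendritic cells of type 2, 11 of 14 were lower, with a median of -0.53, and 1 fell, Mgl2. The median was -0.35 without both muscle-bearing inguinal arrays. Genes of type 1 dendritic cells, which lack CD301b, had 3 of 6 lower and a median of -0.02. Their smallest p belonged to Itgae, the integrin chain CD103, at 0.61 (adjusted p = 0.411), followed by Tlr3 at 0.32 (adjusted p = 0.498).

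**Figure D2:**
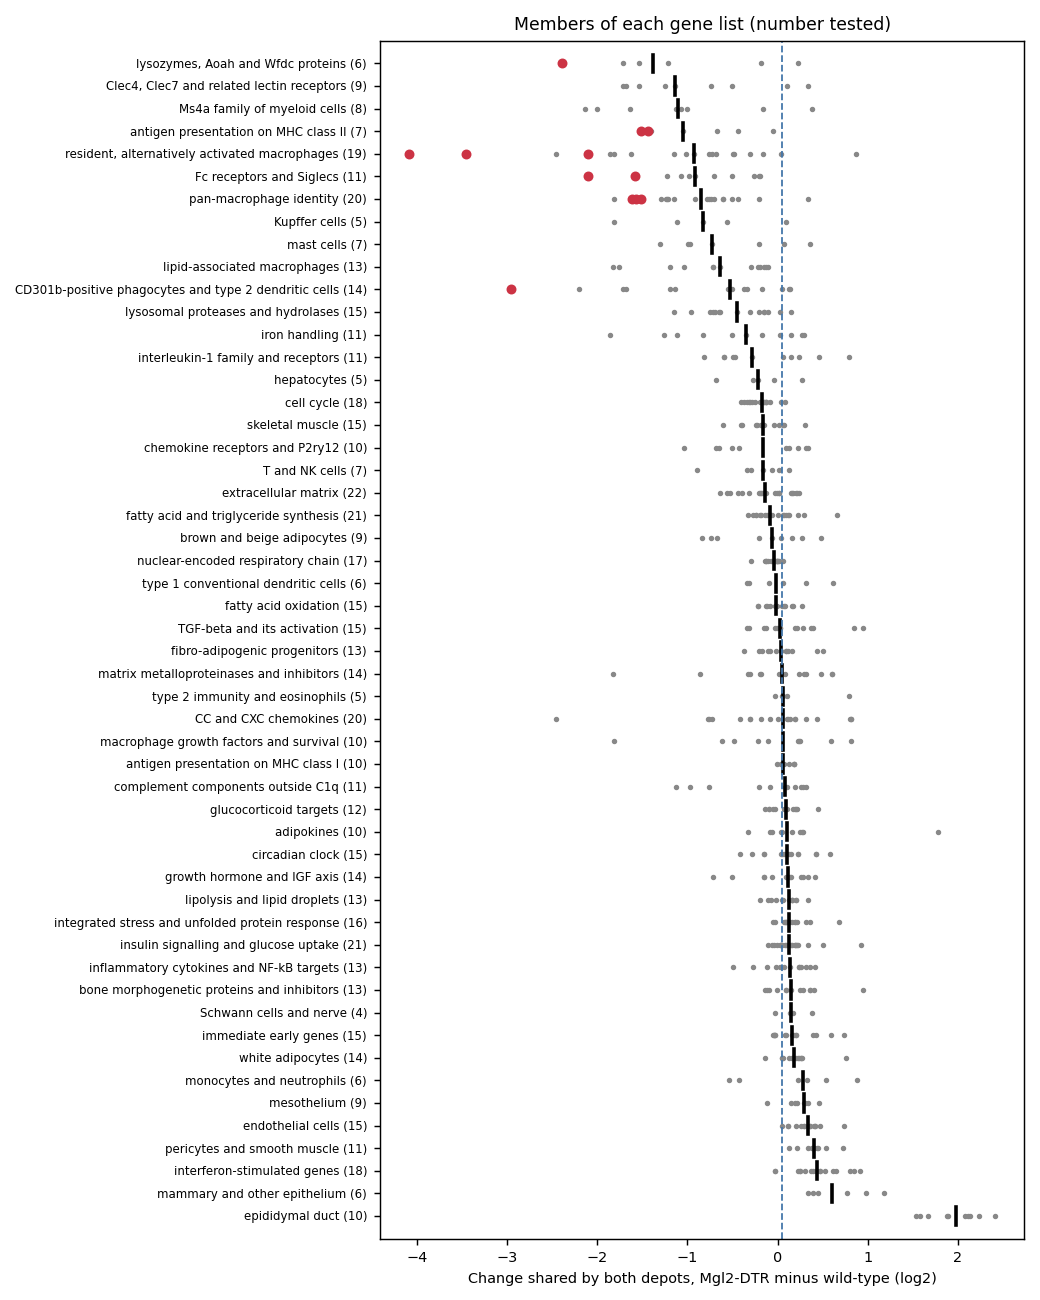
Change shared by both depots (log2, Mgl2-DTR minus wild-type, horizontal axis) of every tested member of each gene list, 1 row per list with its number of tested members (the B cell list, with 2, is not drawn), ordered by the list's median (black bar). Red points are genes that fell, grey points genes that did not pass, and the dashed line is the median of all genes tested, 0.05. The lists with red points lie in the upper rows, with medians of -0.53 to -1.38, and the epididymal duct list at the bottom rests on 1 array.

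Enzymes and cargo of phagocytes were lower to different degrees. Of 6 lysozymes and secreted myeloid proteins 5 were lower, with a median of -1.38, and Lyz1 fell. Of 15 lysosomal proteases and hydrolases 13 were lower, with a median of -0.45 and none past the test, and the cathepsin Ctsh had the smallest p, at -0.96 (adjusted p = 0.316). All 13 tested genes of lipid-associated macrophages were lower, with a median of -0.63, none past the test and arrays apart in 2. Mmp12, macrophage elastase, was 11.00, 9.57, 7.74 and 7.66 in the wild-type arrays and 9.61, 8.02, 5.52 and 5.51 in the Mgl2-DTR arrays, so its epididymal arrays overlapped, and its change was -1.83 (adjusted p = 0.256). Atp6v0d2, a subunit of the proton pump, was 11.40 in epididymal wild-type replicate 1 and 9.17 in replicate 2. Without epididymal wild-type replicate 1 the medians of the lipid-associated and lysosomal lists were -0.28 and -0.16, and 9 of the 13 lipid-associated genes were lower. Without both epididymal arrays that stood apart, 10 of these 13 were lower, with a median of -0.16. Iron handling genes had 7 of 11 lower and a median of -0.35, with Slc40a1, the iron exporter ferroportin, at -1.12 (adjusted p = 0.255).

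Markers of other blood cells in the tissue were mixed. Of 7 tested mast cell genes 5 were lower, 4 with arrays apart, with a median of -0.73 and none past the test. The 3 with the smallest p encode proteases of the granules, with Mcpt4 at -1.30 (adjusted p = 0.268), Tpsb2 at -0.999 (adjusted p = 0.228) and Cpa3 at -0.97 (adjusted p = 0.233). Cpa3 was 8.30, 8.84, 10.48 and 10.49 in wild-type and 8.02, 7.75, 8.88 and 9.57 in Mgl2-DTR fat, whereas Kit, the receptor that mast cells need, was at 0.36 and Hdc at 0.07. Of 6 monocyte and neutrophil genes 4 were higher, near the 62.8% of all genes. Their median was 0.28, and single arrays moved it, to 0.10 without inguinal wild-type replicate 1, 0.12 without inguinal Mgl2-DTR replicate 2 and 0.46 without inguinal wild-type replicate 2. T and natural killer cell genes had a median of -0.16 over 7 genes, which was 0.02 without inguinal wild-type replicate 1. Chemokine receptors had a median of -0.17 over 10 genes, which was -0.04 without epididymal wild-type replicate 1 or inguinal Mgl2-DTR replicate 1, -0.05 without epididymal Mgl2-DTR replicate 2 and -0.40 without inguinal Mgl2-DTR replicate 2, so neither list has a settled direction. Kit and Hdc were named after their values were seen.

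**Figure D3:**
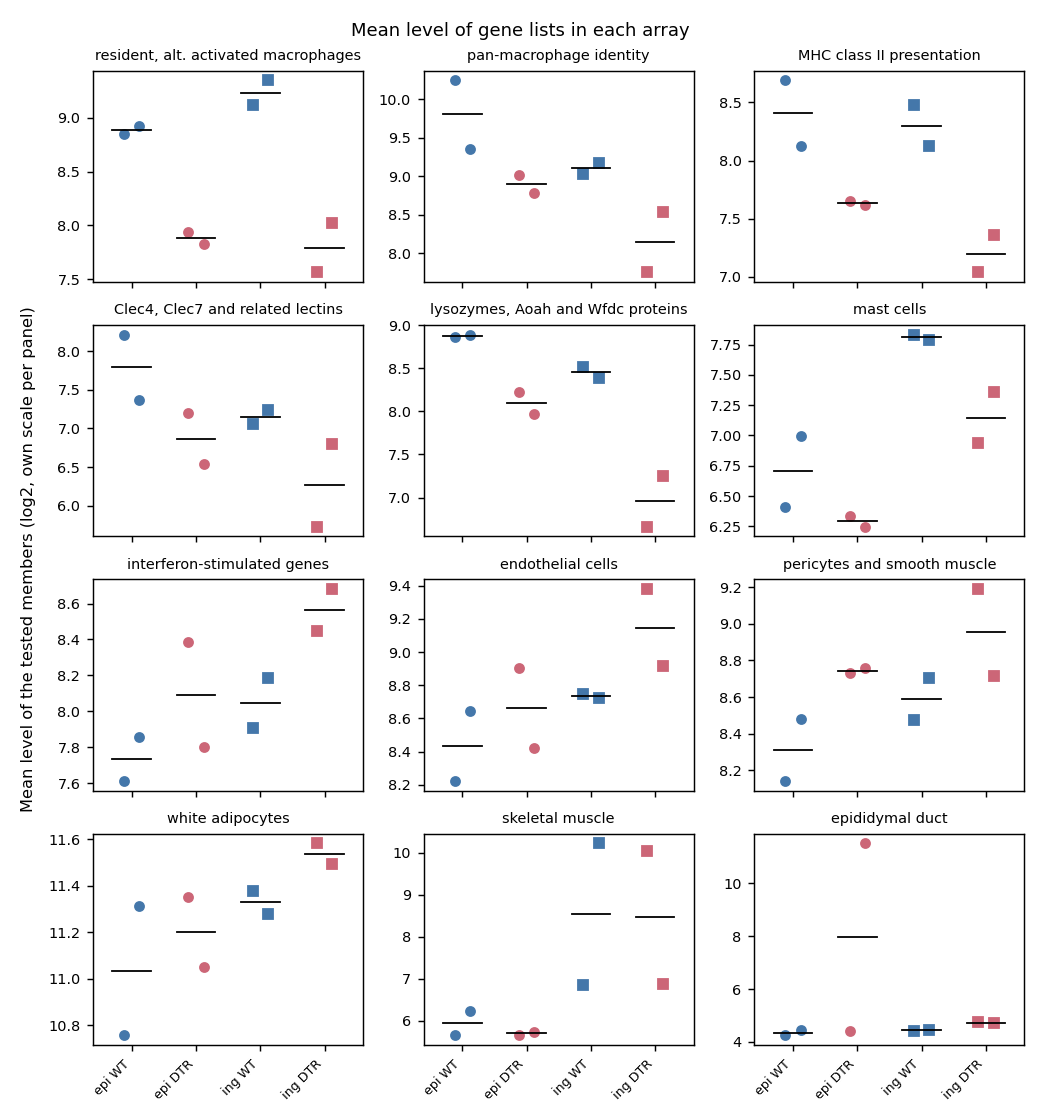
Mean level (log2, vertical axis, own scale per panel) of the tested members of 12 gene lists in each of the 8 arrays. Circles are epididymal (epi) and squares inguinal (ing), blue wild-type (WT) and red Mgl2-DTR (DTR), and lines are means of 2 arrays. In the panel of resident macrophages all 4 Mgl2-DTR arrays lie below all 4 wild-type arrays, the muscle panel shows 2 high inguinal arrays, 1 of each genotype, and the duct panel shows 1 high epididymal Mgl2-DTR array.

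Across single genes, 131 were lower by at least 1 log2 unit in epididymal fat and 108 in inguinal fat, and 59 (0.501% of genes tested) were so in both, which is 45.04% of the epididymal and 54.6% of the inguinal genes. Of the 59, 51 had arrays apart in both depots and 14 fell. Of these 59, 24 were on no list. Examples are the Toll-like receptors for RNA, with Tlr8 at -1.72 (adjusted p = 0.256), Tlr7 at -1.32 (adjusted p = 0.186), Unc93b1, which carries these receptors to endosomes, at -1.19 (adjusted p = 0.158), and Ly86, a partner of the receptor RP105, at -1.49 (adjusted p = 0.210). Tlr7 was 8.13, 7.28, 6.70 and 7.40 in wild-type and 6.51, 6.10, 5.54 and 6.09 in Mgl2-DTR fat. Others were Cybb, the catalytic subunit of the phagocyte oxidase, at -1.40 (adjusted p = 0.263), Hpgds, prostaglandin D synthase, at -1.42 (adjusted p = 0.431), and the interleukin-10 receptor chain Il10ra at -1.19 (adjusted p = 0.415). These genes were named after their values were seen, and none of those given here passed the test.

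A probe for a microRNA gene was among the 59. Mir511 lies within Mrc1, the gene for the mannose receptor CD206 of resident macrophages. Its probe was 6.56, 6.14, 6.19 and 6.87 in the wild-type arrays and 5.40, 5.28, 5.03 and 5.53 in the Mgl2-DTR arrays, a change of -1.13 (adjusted p = 0.121). Mrc1 itself was at -1.02 (adjusted p = 0.379), with -0.67 in epididymal and -1.36 in inguinal fat. Both had arrays apart in each depot and neither passed. The array reads total RNA, so the probe may detect the host transcript or the precursor and does not measure the mature form. The mature sequence, from RefSeq (GRCm38.p6, chr2:14261051-14261072, plus strand), is shown with its seed, bases 2 to 8, in capitals.
mmu-miR-511-3p: aAUGUGUAgcaaaagacaggau
Mir511 and Mrc1 were named after their values were seen.

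No gene passed the test on the higher side in the main fit, so that side is given as values. Of genes with a change of at least 0.58 and arrays apart in both depots, Bmp3, a bone morphogenetic protein, had the smallest p, at 0.94 (adjusted p = 0.108). It was 7.66, 8.003, 8.45 and 8.25 in wild-type and 8.99, 8.43, 9.50 and 9.21 in Mgl2-DTR fat, so each depot's arrays were apart while the depots overlapped. It was followed by Erdr1 at 0.99, Mycbp2, a ubiquitin ligase, at 0.66, Stat2 at 0.65, Afap1l2 at 0.58, Sfrp5, a secreted inhibitor of Wnt, at 0.96, Dysf, which acts in membrane repair, at 0.68 and Lrrc74b at 0.67, with adjusted p-values of 0.188 to 0.243. A second probe for Dysf gave -0.01, and a second probe for Erdr1 gave 2.08. Sfrp5 was 7.69, 8.15, 6.86 and 6.86 in wild-type and 8.88, 8.27, 8.23 and 8.001 in Mgl2-DTR fat.

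Higher by at least 1 log2 unit were 141 genes in epididymal and 26 in inguinal fat, and 3 (0.0254%) in both, which is 2.13% and 11.5% of these genes. They were Lcn2, lipocalin 2, which binds bacterial siderophores, at 1.78 (adjusted p = 0.455), Gfra1, the receptor subunit for GDNF, at 1.68 (adjusted p = 0.532) and Apod, apolipoprotein D, at 1.37 (adjusted p = 0.328). Gfra1 was 5.50 and 9.40 in the epididymal Mgl2-DTR arrays, and the second of these is the array with duct genes. That array also raises the epididymal count of 141. The 10 tested duct genes had a median change of 3.61 in epididymal and 0.29 in inguinal fat. How many of the 141 genes rest on this array alone was not tested, so the counts do not compare the depots. Lcn2 was 8.61, 9.52, 6.25 and 7.04 in wild-type and 9.74, 11.40, 7.62 and 9.77 in Mgl2-DTR fat. Apod was 7.34, 8.79, 9.99 and 9.95 in wild-type and 9.29, 10.23, 10.99 and 11.05 in Mgl2-DTR fat. Gfra1 and Apod were named after their values were seen.

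Interferon-stimulated genes were higher as a group without a member past the test. Of 18 tested, 16 were higher, where 62.8% of all genes were, 6 with arrays apart in both depots, and their median was 0.43. Their mean level was 7.61 and 7.86 in wild-type and 8.38 and 7.80 in Mgl2-DTR epididymal fat, so these arrays overlapped. In inguinal fat it was 7.91 and 8.18 against 8.45 and 8.68. Stat2, a subunit of the factor that turns these genes on, was 8.40, 8.58, 8.81 and 8.98 in wild-type and 9.20, 8.84, 9.52 and 9.80 in Mgl2-DTR fat, a change of 0.65 (adjusted p = 0.210). Usp18, a brake on the interferon receptor, was at 0.85 (adjusted p = 0.356) and Cxcl10, a chemokine for T cells, at 0.80 (adjusted p = 0.376). The median kept its sign and stayed between 0.36 and 0.55 when single arrays, or either pair of arrays with other tissue or standing apart, were left out and under both other scalings.

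Vessel and adipocyte genes were higher by small amounts, in data where 62.8% of all genes were higher. All 15 tested endothelial genes and all 11 genes of pericytes and smooth muscle were higher, with medians of 0.34 and 0.40 and none past the test. Tie1, a receptor of endothelial cells, was at 0.42 (adjusted p = 0.485), and Notch3, a receptor of mural cells, at 0.39 (adjusted p = 0.451). The endothelial median was 0.20 without inguinal Mgl2-DTR replicate 1, which held muscle. In epididymal fat the mean level of the endothelial list overlapped between genotypes, at 8.22 and 8.64 in wild-type and 8.90 and 8.42 in Mgl2-DTR arrays. The white adipocyte list overlapped there too, at 10.76 and 11.31 against 11.35 and 11.05. Of 14 white adipocyte genes 13 were higher, with a median of 0.18, which was 0.06 without epididymal wild-type replicate 1 and 0.31 without replicate 2. Under cyclic loess 10 were higher. Of 21 genes of insulin signalling and glucose uptake 17 were higher, with a median of 0.13, and under cyclic loess 13 were, against 49.6% of all genes in that scaling. The insulin median was 0.05 without epididymal wild-type replicate 1 and 0.08 without epididymal Mgl2-DTR replicate 1. Irs2, an insulin receptor substrate, was 8.26, 9.04, 8.11 and 8.22 in wild-type and 9.27, 9.25, 9.21 and 9.59 in Mgl2-DTR fat, a change of 0.92 (adjusted p = 0.256). Its 4 Mgl2-DTR arrays lay above all 4 wild-type arrays. The medians of these lists are set against 0.05 for all genes, which became 0.02 under quantile normalization and -0.0023 under cyclic loess.

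Metabolic lists had medians near that of all genes, and single arrays turned the sign of several. Lipolysis and lipid droplets had a median of 0.12 over 13 genes, fatty acid and triglyceride synthesis -0.08 over 21, fatty acid oxidation -0.02 over 15, the nuclear-encoded respiratory chain -0.04 over 17 and adipokines 0.10 over 10, with no member past the test. Leaving out single arrays turned the medians of fatty acid synthesis, fatty acid oxidation and the respiratory chain to as much as 0.04, 0.06 and 0.01, so these lists have no settled direction. Lep, leptin, was at 0.27 (adjusted p = 0.551). Brown and beige adipocyte genes had 5 of 9 lower and a median of -0.06, which ran from -0.30 without inguinal Mgl2-DTR replicate 1 to 0.08 without replicate 2, with Cidea, a lipid droplet protein of brown fat, at -0.83 (adjusted p = 0.479) and Cox8b, a subunit of cytochrome oxidase, at -0.74 (adjusted p = 0.379). In wild-type mice Cidea was high in inguinal fat, with levels of 8.72 and 8.43 and 4.64 and 4.99 in epididymal fat, so the shared value is mostly the inguinal change of -1.56. Extracellular matrix genes had 14 of 22 lower and a median of -0.14, but 11 of 22 and -0.04 without inguinal wild-type replicate 1, -0.07 without inguinal Mgl2-DTR replicate 1 and -0.09 without inguinal Mgl2-DTR replicate 2. Col1a2, a chain of type I collagen, was at -0.19 in epididymal and -0.93 in inguinal fat. Cell cycle genes had 16 of 18 lower and a median of -0.18, but 2 of 18 lower and a median of 0.18 without epididymal wild-type replicate 1.

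The depots were compared gene by gene, with different arrays on each side. Across the 11788 genes, the epididymal and inguinal changes had a Pearson r of 0.40 and a Spearman correlation of 0.33, a description over genes that share arrays and are not independent, and 6972 genes (59.1%) had the same sign. Without both muscle-bearing arrays r was 0.28, and without both epididymal arrays that stood apart it was 0.26. Of the 16 genes that fell, 13 had the larger change in inguinal fat, where the replicates were closer. Within epididymal fat alone in the model with 4 group means, 1 gene fell (0.00848%), Mgl2, and within inguinal fat 9 did (0.0763%), namely Mgl2, Retnla, Cd209g, Fcrls, Gfra2, C1qc, C1qa, Lyz1 and Ccl8. The largest gap among the 16 was that of Cd209g, at -2.63 in epididymal and -4.28 in inguinal fat, a difference of -1.65 (SE 0.476, adjusted p = 0.993).

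**Figure D4:**
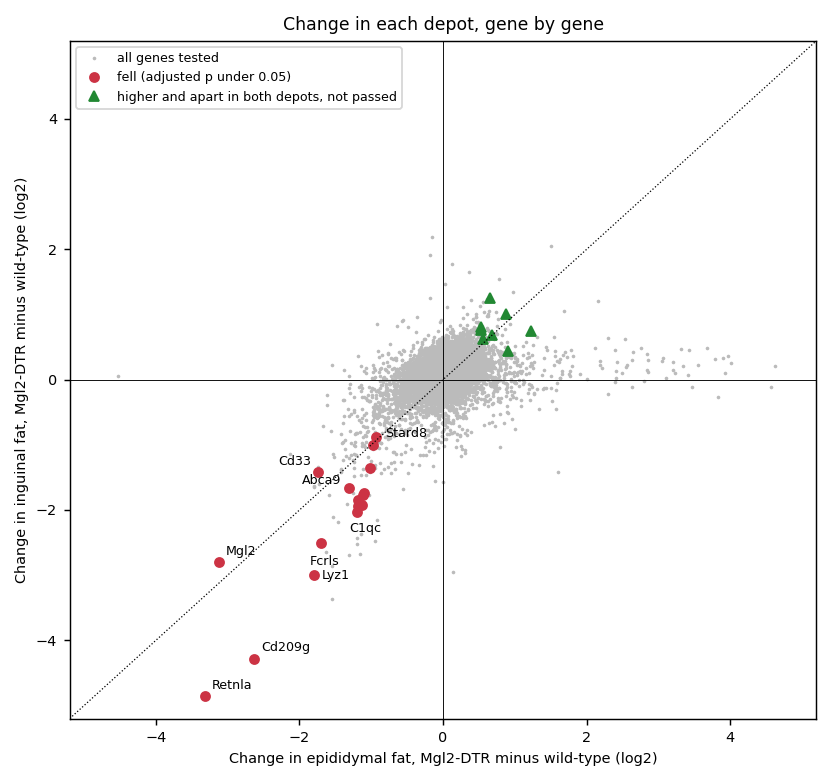
Change of each gene in epididymal fat (horizontal axis) against its change in inguinal fat (vertical axis), both as Mgl2-DTR minus wild-type in log2 units, with grey dots for all 11788 genes tested and a dotted line where both are equal. Red circles are the 16 genes that fell and green triangles the 8 genes of the higher side named for arrays apart in both depots, which did not pass. Of the red circles 13 lie below the dotted line, and the grey dots stretched to the right along the horizontal axis include the duct genes of 1 epididymal array.

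No gene passed the test of the difference between depots in limma (0 of 11788, 0%), and 289 (2.45%) had an unadjusted p under 0.05. Leaving out epididymal Mgl2-DTR replicate 1 gave 70 calls, and leaving out epididymal wild-type replicate 1 or inguinal wild-type replicate 1 gave 1 each. Myb and Gadd45b, which had the smallest p, had arrays apart in opposite directions in the depots. Myb, a transcription factor of progenitor cells, was 5.25 and 5.57 in wild-type and 6.31 and 6.21 in Mgl2-DTR epididymal fat, and 5.91 and 6.01 against 5.24 and 5.36 in inguinal fat, a difference of -1.51 (SE 0.214). Gadd45b, a stress-response gene, was 9.19 and 9.06 against 8.59 and 8.36 in epididymal and 6.74 and 6.91 against 7.57 and 7.74 in inguinal fat, a difference of 1.47 (SE 0.211). Itgb8, an integrin chain that activates TGF-beta, was 5.81 and 5.80 against 5.66 and 6.18 in epididymal, and 5.70 and 5.49 against 7.55 and 7.20 in inguinal fat, a difference of 1.66 (SE 0.299). Each of these had an adjusted p of 0.993.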

How the data were processed

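Total RNA of whole fat was labelled with biotin and hybridised to Affymetrix mouse gene arrays, per the labels' protocols. The deposited values are log2 levels of 41345 probes that the authors had already normalized. The submitters' processing notes name limma, and how background, scaling and probe summaries were handled is not given in the sources used here. Of the probes, 23521 had 1 gene symbol in the platform annotation, 1814 had several and 16010 were not listed. Each of 22180 genes was read from its brightest probe with 1 symbol, and near-identical genes such as those of the lysozyme, Clec4a, Ms4a and Cd209 families may share signal.

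Levels were fitted with limma 3.58.1 in R 4.3.3 with depot and genotype as terms (5 residual degrees of freedom) and eBayes. Tests were two-sided, with Benjamini-Hochberg adjustment over 11788 genes and a threshold of 0.05. The depot difference came from a model of 4 group means. Liver arrays were not used. The code was tested on simulated data. The members and gene lists were chosen with earlier results of these data known. Named were Mgl2 and Retnla, up to 16 called genes in each direction whose arrays lay apart in both depots, up to 8 genes with the smallest p and a change of at least 0.58 where a direction had few, up to 4 called or 3 other members of each list, and 4 genes in each direction of the depot difference. Genes named outside this rule are marked in the text. Alternatives covered the filter, probe choice, scaling, array weights, blocks, thresholds and left-out arrays.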

Additional observations from a re-analysis of the deposited data

Results flagged for a closer look

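In 6 genes named here, the arrays of the genotypes lay apart in both depots but in opposite directions. The inguinal minus epididymal difference was -1.51 for Myb, which was higher in Mgl2-DTR epididymal fat (0.85) and lower in inguinal fat (-0.66), and 1.47 for Gadd45b, which was lower (-0.65) and higher (0.83). It was -1.38 for Sfrp2, a secreted modulator of Wnt, with 0.30 in epididymal and -1.08 in inguinal fat. Sfrp2 was 7.95 and 8.16 against 8.46 and 8.25 in epididymal and 9.13 and 8.73 against 7.90 and 7.80 in inguinal fat, wild-type first. For Igsf3, a membrane protein of the immunoglobulin superfamily, the difference was -0.86, from 0.62 and -0.24. For Nfatc2ip, a protein that binds the factor NFATc2, it was 0.88, from -0.44 and 0.44. For Ngfr, the low-affinity receptor for neurotrophins, it was 0.87, from -0.30 and 0.58. The difference between depots was tested in limma with 2 arrays per group, and none of the 6 passed (adjusted p = 0.993 for each).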

How the results depend on the processing

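None of the 16 called genes turned sign in any alternative, while the number of calls moved. Their arrays lay apart in both depots, so fits that only left out arrays could not have turned a sign. Of 52 list medians, 20 turned sign in at least 1 alternative, the cell cycle list among them, and so did 21 of the 164 genes followed, none of them called. Against 16 genes called, leaving out single arrays gave 1 to 42. No filter on dim genes gave 4, and array weights gave 27, of which 26 were lower and 1 higher. The muscle mean as a covariate gave 5 and the mean of both depots per genotype and number 2. The number called was 0 in epididymal arrays alone (245 genes at an unadjusted p under 0.05 in limma) and 4 in inguinal arrays alone. It was 0 without both muscle-bearing inguinal arrays and 3 without both epididymal arrays that stood apart. A fixed replicate block gave 4 calls, namely Abca9, Fcrls, Mgl2 and Retnla, and a random replicate block of genotype and number gave 16. The labels do not say whether equal numbers mark 1 mouse, and the numbers were not treated as pairs. The replicate differences of the depots had an r of 0.084 in wild-type and -0.006 in Mgl2-DTR fat. For the depot difference, with 0 calls, leaving out single arrays gave 0 to 70 and leaving out both epididymal arrays that stood apart gave 2. The r between depots was 0.250 to 0.444 without single arrays, 0.278 without the muscle-bearing pair and 0.259 without the epididymal pair. The cause of these shifts was not tested. The list medians under other scalings were added after seeing the data. Levels under 5.74, as for Mgl2 and Cd209g in all 4 Mgl2-DTR arrays, are dim, and a change measured against them is less certain.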
